A study of Homo sapiens with 18 samples.

Results

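Adhesion of melanoma cells to the extracellular matrix was followed through 5 genes: the integrin subunits ITGA1, ITGA2 and ITGB3, the focal adhesion scaffold PXN (paxillin) and the integrin activator FERMT1 (kindlin-1). They are 5 of 11232 genes and are read by 15 of 23416 probe sets, all annotated to 1 of these genes alone. ITGA1 has 3 probe sets, ITGA2 has 2, ITGB3 has 6, PXN has 1 and FERMT1 has 3, and all 15 passed the filter on low values, which asks for log2 4 or more in at least 3 arrays. ITGA1, ITGA2, ITGB3 and PXN were chosen from measured values: an earlier analysis of the same arrays had named them for the small p-values of their change between PMEL-expressing A375M2 cells and the GFP controls. Their values there, and in every comparison that uses the same GFP arrays, are therefore a description without a test. The comparison that brought in FERMT1 is not recorded, so no test is given for it anywhere.

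Integrins are heterodimers of an alpha and a beta chain that bind matrix proteins outside the cell and link them to actin inside it. ITGA1 and ITGA2 each pair with ITGB1 to form collagen receptors, while ITGB3 pairs with ITGAV to bind vitronectin and other RGD-containing ligands, and with ITGA2B in platelets; in melanoma ITGB3 is known as a marker of the switch to vertical, invasive growth. Kindlins and talin bind the tails of beta chains and bring integrins into their active state, and paxillin docks kinases and adaptors at the adhesions that follow. FHL2, the target of the shRNAs used here, is a LIM-domain protein that itself binds integrin tails.

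Total RNA was measured in A375M2 and C32, both human melanoma lines, after lentiviral transduction, in 6 groups of 3. In A375M2 the groups carried a GFP control, full-length PMEL behind a CMV promoter with eGFP after an IRES, a pool of 3 shRNA constructs against FHL2, or shRNAs against NFYA, which encodes a chain of the transcription factor NF-Y; in C32 they carried GFP or the shRNAs against FHL2. Transduced cells were drug-selected and sorted for high GFP, as described for PMEL, GFP and the FHL2 shRNAs; the constructs of the NFYA arm are not described in the labels. The labels name both an eGFP empty vector under blasticidin and a CopGFP control under puromycin and do not say which of them the GFP arrays hold, no group with a non-targeting shRNA is labelled, and the cell line field of the A375M2 arrays reads A375. The A375M2 arrays stem from 3 separate experiments, while nothing in the labels tells if the C32 cultures were separate, and p-values for C32 then cover the spread of arrays alone.

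Some arrays stood apart and bear on every value below. C32 GFP replicate 3 was almost the average of the other two C32 GFP arrays (its differences from that average had an SD of 0.00746, and those of other arrays from their groups 0.108 to 0.171, in 16823 probe sets) and was left out, so C32 GFP has n = 2. Replicate 3 of A375M2 GFP and of A375M2 PMEL deviated from replicates 1 and 2 of their own groups in mirror image. The correlation of these deviations was -0.999 over 23416 probe sets. Their sum had an SD of 0.00745, against 0.143 for each alone, so these arrays were not independent. PMEL differences of the genes followed here, and the count of adhesion genes called with PMEL, are given with and without both. Most other values that use these groups are given with both, and their p-values count both arrays as independent. At low values the FHL2 and NFYA shRNA arrays of A375M2 shared 306 to 315 exactly equal values in each pair, whereas A375M2 GFP shared 0 with them in all 18 pairs. Replicates 1 and 2 of A375M2 GFP shared 536 to 541 with those of PMEL, and the arrays numbered 3 of these groups shared 537 with each other and 0 with replicates 1 and 2 of either group, in 8 pairs. The labels name no array sets. By equal values alone the A375M2 shRNA groups lie apart from every A375M2 GFP array. Comparisons of these groups with A375M2 GFP are called crossing array sets below, since such a set and the shRNAs cannot be told apart there. A375M2 GFP also shared 0 equal values with replicates 1 and 2 of C32 GFP, so a set and the line cannot be told apart in gaps between the lines. Probe sets for 18S rRNA averaged log2 12.52 ± 0.03 (SD) in A375M2 GFP, 11.08 ± 0.02 in PMEL, 14.18 ± 0.07 with FHL2 shRNAs and 14.19 ± 0.11 with NFYA shRNAs (n = 3 each). In C32 they averaged 13.28 ± 0.13 (n = 2) with GFP and 13.94 ± 0.10 (n = 3) with FHL2 shRNAs, and their part in the results was not tested.

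The transduced genes moved as labelled. With its shRNAs FHL2 had a log2 difference of -4.04 in A375M2 (limma, adjusted p = 1.61e-14) and -5.24 in C32 (adjusted p = 2.53e-14). PMEL rose by 3.38 in the PMEL group (limma, adjusted p = 1.58e-12), and NFYA fell by 2.06 with its own shRNAs (adjusted p = 4.3e-13). With the FHL2 shRNAs NFYA differed by -0.73 in A375M2 (limma, adjusted p = 1.04e-06), a comparison that crosses array sets and where 85.4% of all genes passed. In C32 NFYA differed by -0.12 with these shRNAs and did not pass (limma, adjusted p = 0.336). Of 7 melanocyte markers 6 were on the table, and their summed log2 level was 52.5 to 52.9 in A375M2 GFP, 55.6 to 56.1 with PMEL, 41.8 to 42.3 with FHL2 shRNAs and 39.3 to 39.8 with NFYA shRNAs. In C32 it was 76.8 to 77.4 with GFP and 68.1 to 68.2 with FHL2 shRNAs. PMEL, the transduced gene, is among these 6 markers and read 5.57 with GFP and 8.95 with PMEL in A375M2. The other markers moved far less there. From GFP to PMEL, S100B read 13.33 and 12.99, SOX10 12.76 and 12.87, TYR 4.44 and 4.36, and MLANA 2.38 and 2.27. The part of this list in the results was not tested. SOX10 group means lay between log2 11.79 and 12.88. MITF read 14.24 in A375M2 GFP, 14.37 with PMEL, 10.05 with FHL2 shRNAs and 8.95 with NFYA shRNAs. In C32 it read 14.96 with GFP and 14.20 with FHL2 shRNAs. MLANA read 2.18 to 2.38 in the 4 A375M2 groups, 14.00 in C32 GFP and 12.25 in C32 with FHL2 shRNAs. Of 9 fibroblast markers 6 were measured, with a summed level of 40.9 to 41.2 in A375M2 GFP, 36.1 to 36.4 in PMEL, 30.2 to 30.4 with FHL2 shRNAs and 30.6 to 31.3 with NFYA shRNAs, and of 37.6 to 38.6 over the C32 arrays. The leukocyte marker PTPRC read 2.16 to 2.27 in A375M2, 8.63 in C32 GFP and 7.80 in C32 with FHL2 shRNAs; none of the 5 platelet markers was measured. Of 5 endothelial markers only KDR was measured; it read 6.83 in A375M2 GFP, 5.56 with PMEL, 7.58 with FHL2 and 5.86 with NFYA shRNAs, and 10.18 in C32 GFP and 7.83 in C32 with FHL2 shRNAs. In bulk RNA, fewer cells of a type and less RNA per cell cannot be told apart.

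ITGA1 and ITGA2 lie side by side on chromosome 5, with starts 201 kb apart, and encode the collagen-binding alpha chains. Their upstream DNA is shown because the pair stood lower together with PMEL, while under the shRNAs ITGA1 was higher like ITGA2 on 2 of its 3 probe sets and not on 226731_at, and a stretch of PXN because NFYA shRNAs were used and it holds an NF-Y box. The 250 bases before each start are from RefSeq on GRCh38.p14, at chr5:52787666-52787915 (plus strand) for ITGA1, chr5:52989102-52989351 (plus strand) for ITGA2 and chr12:120250164-120250413 (minus strand) for the downstream of 2 PXN starts. Sequences read 5′ to 3′ on the gene's strand, with matches on either strand in capitals. The letters searched were GGGCGG for the GC box bound by SP1 and CCAAT for the box bound by NF-Y. For AP-1 they were TGANTCA; none of the 3 contains another.
ITGA1: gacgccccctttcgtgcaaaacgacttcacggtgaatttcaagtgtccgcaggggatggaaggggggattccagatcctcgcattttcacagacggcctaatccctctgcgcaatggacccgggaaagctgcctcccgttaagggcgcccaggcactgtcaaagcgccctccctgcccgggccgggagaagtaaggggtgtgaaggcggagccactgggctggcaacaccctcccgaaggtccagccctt
ITGA2: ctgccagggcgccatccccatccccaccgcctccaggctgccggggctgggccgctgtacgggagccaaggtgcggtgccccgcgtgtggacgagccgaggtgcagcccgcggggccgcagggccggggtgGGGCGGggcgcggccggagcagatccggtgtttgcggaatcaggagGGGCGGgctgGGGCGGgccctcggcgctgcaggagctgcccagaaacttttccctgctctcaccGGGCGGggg
PXN: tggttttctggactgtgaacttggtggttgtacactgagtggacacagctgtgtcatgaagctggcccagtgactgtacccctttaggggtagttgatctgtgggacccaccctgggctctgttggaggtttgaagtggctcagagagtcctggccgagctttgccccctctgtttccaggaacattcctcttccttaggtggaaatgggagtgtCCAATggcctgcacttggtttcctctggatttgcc
The ITGA1 stretch, at 62% GC, held 0 matches of these motifs, and none of 3 more that are not shown in capitals. These were GGAATG for TEAD factors, TATAAA for the TATA box and, for ETS factors, the letters CCGGAAG. The ITGA2 stretch, at 76.4% GC, held GC boxes at 4 places, 119, 73, 63 and 9 bases before the start, and no NF-Y box. In PXN the stretch above, at 53.6% GC, held an NF-Y box 35 bases and a TEAD match 67 bases before the start. The 250 bases before the upstream start, at 83.6% GC, held 8 GC boxes and no NF-Y box. Over 35116 promoters of the same length, the GC box was present in 42.6%, the NF-Y box in 32%, the TEAD letters in 11.9%, the TATA box in 10.7%, the ETS letters in 8.52% and the AP-1 letters in 6.57%. These are matches of letters, not measured sites, and a missing match says only that the letters are not in this window. ITGB3 lies on chromosome 17 and FERMT1 on chromosome 20.

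ITGA1, the alpha chain of the collagen IV receptor, stood lower with PMEL than with GFP in A375M2, and lower still with NFYA shRNAs by the probe set that stands for the gene. On that probe set, 226731_at, the A375M2 GFP arrays read log2 10.36, 10.33 and 10.47 and the PMEL arrays 9.17, 8.96 and 8.94. With FHL2 shRNAs they read 10.46, 10.39 and 10.49, and with NFYA shRNAs 8.31, 8.15 and 8.35. The PMEL and NFYA shRNA arrays all lay below every GFP array and did not overlap each other, while the FHL2 shRNA arrays overlapped GFP. The group means were 10.38 ± 0.07 (SD, n = 3) for GFP, 9.02 ± 0.13 for PMEL, 10.45 ± 0.05 for FHL2 shRNAs and 8.27 ± 0.10 for NFYA shRNAs, which puts PMEL at a log2 difference of -1.36 from GFP, and at -1.28 without the third arrays. C32 GFP read 7.40 and 7.84 and C32 with FHL2 shRNAs 7.85, 7.92 and 7.83, all below every A375M2 array. The mean of C32 GFP differed from that of A375M2 GFP by -2.77 on the log2 scale, a 6.81-fold gap.

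The probe sets of ITGA1 disagreed on the shRNAs. On 214660_at, A375M2 GFP read 8.94, 9.18 and 8.99, PMEL 7.67, 7.46 and 7.62, FHL2 shRNAs 11.34, 11.27 and 11.35, and NFYA shRNAs 10.49, 10.25 and 10.19. Here PMEL was again the lowest A375M2 group, at -1.45 from GFP, but both shRNA groups stood above GFP, by 2.29 for FHL2 and 1.28 for NFYA. On 1560359_at, GFP, PMEL and C32 lay between 2.26 and 2.37, at the floor of the arrays, whereas FHL2 shRNAs read 6.31, 6.07 and 6.15 and NFYA shRNAs 3.31, 2.51 and 3.95. The sign of the NFYA shRNA difference from GFP therefore depends on the probe set, at -2.12, 1.28 and 0.89, and it crosses array sets. PELO and several noncoding RNAs and pseudogenes lie within the span of ITGA1, and which transcript each probe set reads was not tested.

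**Figure D1:**
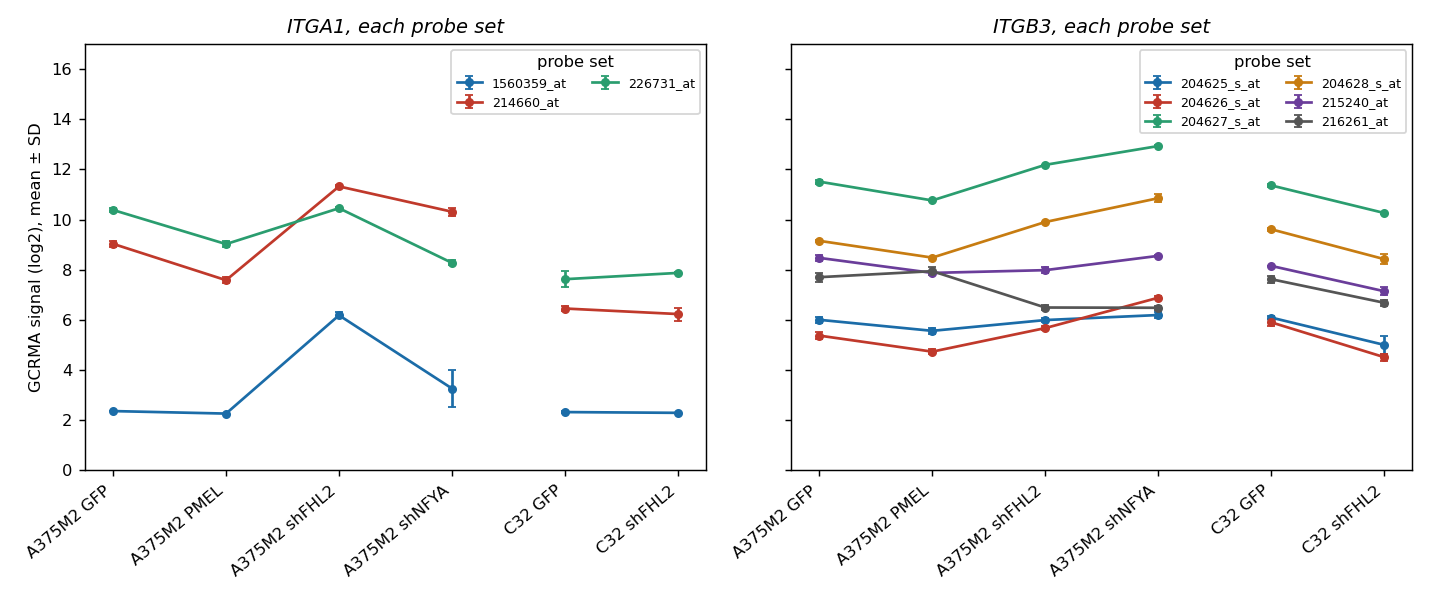
Group means of each probe set of ITGA1 (left) and ITGB3 (right), in log2 signal on the vertical axis, over the 6 groups on the horizontal axis. Points are means, bars are SDs (n = 3, and 2 for C32 GFP), and lines join the groups of a cell line as a guide to the eye. With NFYA shRNAs 226731_at reads 8.27 and 214660_at 10.31, below and above their own GFP means, and all ITGB3 probe sets fall in C32 with FHL2 shRNAs.

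By equal values the 2 shRNA groups of A375M2 lie together, though the labels name no array sets. Neither group holds an array that chose the genes. Their means can therefore be tested against each other. The spread behind each SE and p-value was estimated over all groups fitted, among them the A375M2 GFP and PMEL arrays. These tests, and those in C32, are therefore not wholly free of the choice of genes. ITGA1 was higher with FHL2 than with NFYA shRNAs on every probe set. The gene's log2 difference was 2.18 (SE 0.0923, 95% interval 1.98 to 2.37), or 4.53-fold (limma, adjusted p = 9.12e-13). The other probe sets gave 1.01 (limma, adjusted p = 3.18e-07 over 19431 probe sets) and 2.92 (adjusted p = 3.33e-09). Of the 4 genes open to a test here, 3 passed (ITGA1, ITGB3 and PXN), where 70.3% of all 10918 genes tested did.

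In C32, ITGA1 changed by 0.25 with FHL2 shRNAs (SE 0.103, 95% interval 0.03 to 0.47; limma, adjusted p = 0.045), with arrays that overlapped. This call turned on single arrays. Without C32 GFP replicate 1 the difference was 0.03 (limma, adjusted p = 0.869) and without replicate 2 it was 0.47 (adjusted p = 0.000594); each leaves 1 GFP array, which is assumed to vary like the other groups. Leaving out any of the C32 shRNA arrays gave 0.22 to 0.27 (adjusted p = 0.0585 to 0.11), and 214660_at gave -0.22 (adjusted p = 0.139). In C32, 2 of the 4 genes passed (ITGA1 and ITGB3), against 62.5% of all genes tested.

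ITGA2, the alpha chain of the collagen I receptor, was lower with PMEL and higher with both shRNAs than with GFP in A375M2, and the shRNA groups overlapped. On 227314_at the GFP arrays read log2 10.39, 10.38 and 10.53, PMEL 9.86, 9.87 and 9.70, FHL2 shRNAs 11.17, 11.07 and 11.19, and NFYA shRNAs 11.29, 11.13 and 11.11. PMEL lay below and both shRNA groups above every GFP array. Means were 10.43 ± 0.09 (SD, n = 3) for GFP, 9.81 ± 0.09 for PMEL, 11.14 ± 0.06 for FHL2 shRNAs and 11.18 ± 0.10 for NFYA shRNAs. The PMEL difference was -0.62, moved to -0.52 without the third arrays, and was -0.11 on 205032_at, where the arrays overlapped; the shRNA differences of 0.71 and 0.74 were 0.81 and 0.91 there.

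Neither test found a change in ITGA2. Between FHL2 and NFYA shRNAs the difference was -0.03 (95% interval -0.16 to 0.09; limma, adjusted p = 0.638). C32 GFP read 8.65 and 8.61 and C32 with FHL2 shRNAs 8.59, 8.61 and 8.52, a difference of -0.05 (95% interval -0.19 to 0.09; limma, adjusted p = 0.545). C32 GFP stood 3.5-fold below A375M2 GFP for ITGA2, with no overlap.

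**Figure D2:**
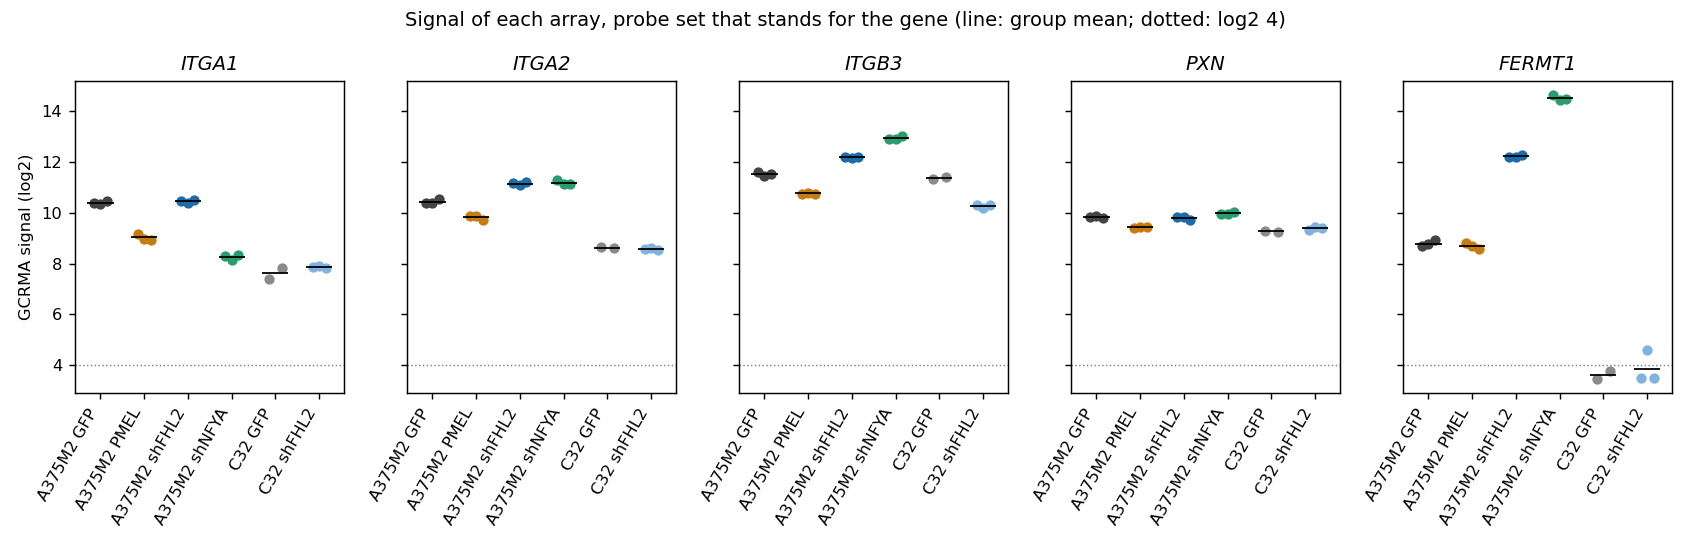
Log2 signal of every array (points) and the group mean (line; the dotted line marks log2 4) for each of the 5 genes, on the probe set that stands for it, with 3 arrays a group and 2 for C32 GFP. ITGA1, ITGA2, ITGB3 and PXN lie lower with PMEL than with GFP in A375M2, and FERMT1 reaches 14.50 with NFYA shRNAs against 8.79 with GFP.

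ITGB3, the beta chain of the vitronectin receptor, fell in C32 with FHL2 shRNAs and was higher in A375M2 with the same shRNAs on the probe set that stands for it. On 204627_s_at, C32 GFP read log2 11.31 and 11.41 and C32 with FHL2 shRNAs 10.28, 10.20 and 10.29. The groups were more than log2 1 apart and did not overlap. The fall was 1.10 (a log2 difference of -1.10, SE 0.0473, 95% interval -1.2 to -1.0), or 2.15-fold (limma, adjusted p = 1.79e-12). All 6 ITGB3 probe sets fell in C32, by log2 differences of -0.94 to -1.39 (limma, adjusted p of 1.6e-05 or less on each). Beside it, poly-A spike-ins averaged log2 9.37 ± 0.28 (SD, n = 2) in C32 GFP and 5.96 ± 0.04 (n = 3) with FHL2 shRNAs, and hybridisation spike-ins 12.79 ± 0.14 and 11.87 ± 0.05. KDR, the measured endothelial marker, was lower there too, and the part of these in the ITGB3 result was not tested.

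In A375M2, ITGB3 on 204627_s_at read 11.59, 11.42 and 11.52 with GFP, 10.75, 10.78 and 10.75 with PMEL, 12.19, 12.16 and 12.19 with FHL2 shRNAs and 12.89, 12.91 and 12.99 with NFYA shRNAs. The 4 groups did not overlap, in the order NFYA shRNAs, FHL2 shRNAs, GFP and PMEL. The means were 11.51 ± 0.08 (SD, n = 3) with GFP, 10.76 ± 0.02 with PMEL, 12.18 ± 0.01 with FHL2 and 12.93 ± 0.05 with NFYA shRNAs, and PMEL differed from GFP by -0.75, or -0.74 without the third arrays. On 204627_s_at and 4 of the other probe sets PMEL was lower, by -0.44 to -0.75, and on 216261_at it was higher by 0.24. The probe sets parted more on FHL2 shRNAs against GFP, from -1.20 on 216261_at and -0.49 on 215240_at to 0.75 on 204628_s_at, and on NFYA shRNAs from -1.22 on 216261_at to 1.70 on 204628_s_at, so the sign of the shRNA differences in A375M2 rests on the probe set. ITGB3 was 1.68-fold lower with FHL2 than with NFYA shRNAs (log2 difference -0.75, SE 0.0423, 95% interval -0.84 to -0.66; limma, adjusted p = 4.53e-11). That test also passed on 204626_s_at, 204628_s_at and 215240_at (-1.22, -0.95 and -0.57), and missed on 204625_s_at (-0.19, adjusted p = 0.264) and 216261_at (0.02, adjusted p = 0.919). The GFP controls of the 2 lines lay close on ITGB3, at -0.15 for C32 against A375M2 on 204627_s_at and -0.32 to 0.53 on the others.

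PXN, the scaffold at focal adhesions, varied least: its group means spanned 0.71 on the log2 scale, from 9.26 to 9.97. Its probe set read log2 9.81, 9.88 and 9.80 in A375M2 GFP, 9.38, 9.43 and 9.45 with PMEL, 9.83, 9.82 and 9.71 with FHL2 shRNAs and 9.94, 9.95 and 10.02 with NFYA shRNAs. PMEL lay below and NFYA shRNAs above every GFP array, and FHL2 shRNAs overlapped GFP. Its PMEL difference was -0.41 (1.33-fold), and -0.44 without the third arrays. PXN was lower with FHL2 than with NFYA shRNAs by a log2 difference of -0.18 (SE 0.0473, 95% interval -0.28 to -0.08; limma, adjusted p = 0.00215). C32 GFP read 9.28 and 9.25 and C32 with FHL2 shRNAs 9.33, 9.44 and 9.39, which overlap the A375M2 PMEL arrays. The C32 difference of 0.12 did not pass (95% interval 0.01 to 0.23; limma, adjusted p = 0.0545), though it did with arrays centred on their medians (0.16, adjusted p = 0.0165).

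FERMT1, the kindlin of epithelia, had the widest range of the 5 genes. On 60474_at it read log2 8.67, 8.77 and 8.92 in A375M2 GFP, 8.82, 8.70 and 8.56 with PMEL, 12.19, 12.20 and 12.28 with FHL2 shRNAs and 14.61, 14.44 and 14.46 with NFYA shRNAs. GFP and PMEL overlapped, while both shRNA groups lay far above them and apart from each other. FHL2 shRNAs stood 10.8-fold (log2 3.43) and NFYA shRNAs 52.5-fold (log2 5.71) above GFP, and the other probe sets gave 4.09 and 3.71, and 6.10 and 6.54. FHL2 shRNAs stood below NFYA shRNAs by log2 differences of -2.28, -2.01 and -2.83 on the 3 probe sets. On 60474_at C32 GFP read 3.46 and 3.77 and C32 with FHL2 shRNAs 3.50, 4.59 and 3.50, all but the 4.59 under log2 4. The 36.1-fold gap between the GFP controls of the lines rests on these low values. On 229545_at C32 GFP read 3.57 and 4.06 and C32 with FHL2 shRNAs 4.47, 5.19 and 5.10, a log2 difference of 1.10 without overlap. The difference on 218796_at was 0.35, also without overlap, with means of 3.12 and 3.47. The PMEL difference was -0.10, and 0.03 without the third arrays. Of 7 keratinocyte and epithelial markers 2 were measured, KRT10 and KRT14, and their summed log2 level was 14.5 to 14.8 in A375M2 GFP, 16.5 to 16.7 with FHL2 shRNAs and 18.1 to 18.6 with NFYA shRNAs. KRT14 read 2.49, 2.97 and 5.08 in these groups, and the part of such cells in the FERMT1 values was not tested.

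Set side by side, 4 of the 5 genes (all but FERMT1) had every PMEL array below every A375M2 GFP array, where 22.1% of all genes tested did; the choice of genes fixed this count. With FHL2 shRNAs 3 of 5 lay wholly above GFP (ITGA2, ITGB3 and FERMT1; 41.7% of all genes), and with NFYA shRNAs 4 of 5 did (those and PXN; 43.7%), with ITGA1 wholly below (43.4% of all genes). These comparisons share the A375M2 GFP arrays.

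The chains that pair with these subunits gave their own values. ITGB1, which pairs with ITGA1 and ITGA2, fell with PMEL (-0.18), with FHL2 shRNAs in A375M2 (-0.26) and in C32 (-0.57, limma, adjusted p = 2.13e-09); its difference with NFYA shRNAs was -0.06. ITGAV, the partner of ITGB3, rose with PMEL (0.18) and NFYA shRNAs (0.37), fell with FHL2 shRNAs in A375M2 (-0.29) and was 1.58-fold lower with FHL2 than with NFYA shRNAs (-0.66, limma, adjusted p = 4.16e-09), as ITGB3 was lower there. In C32 ITGAV differed by -0.12 and did not pass. Of the paralogs, FERMT2 (kindlin-2) rose by 0.54 with FHL2 shRNAs in A375M2 and differed by -0.17 with PMEL, -0.01 with NFYA shRNAs and -0.16 in C32, none of which passed. TGFB1I1 (Hic-5), a paxillin relative, fell with PMEL (-0.50, limma, adjusted p = 2.8e-07), rose with both shRNAs in A375M2 (0.79 and 0.71) and fell 3.16-fold in C32 (-1.66, limma, adjusted p = 4.21e-14). LPXN (leupaxin) fell in the 4 comparisons with GFP on the probe set that stands for it, at -0.33, -0.30 and -0.38 in A375M2 and -0.10 in C32, but its other probe set gave 0.79 with PMEL.

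**Figure D3:**
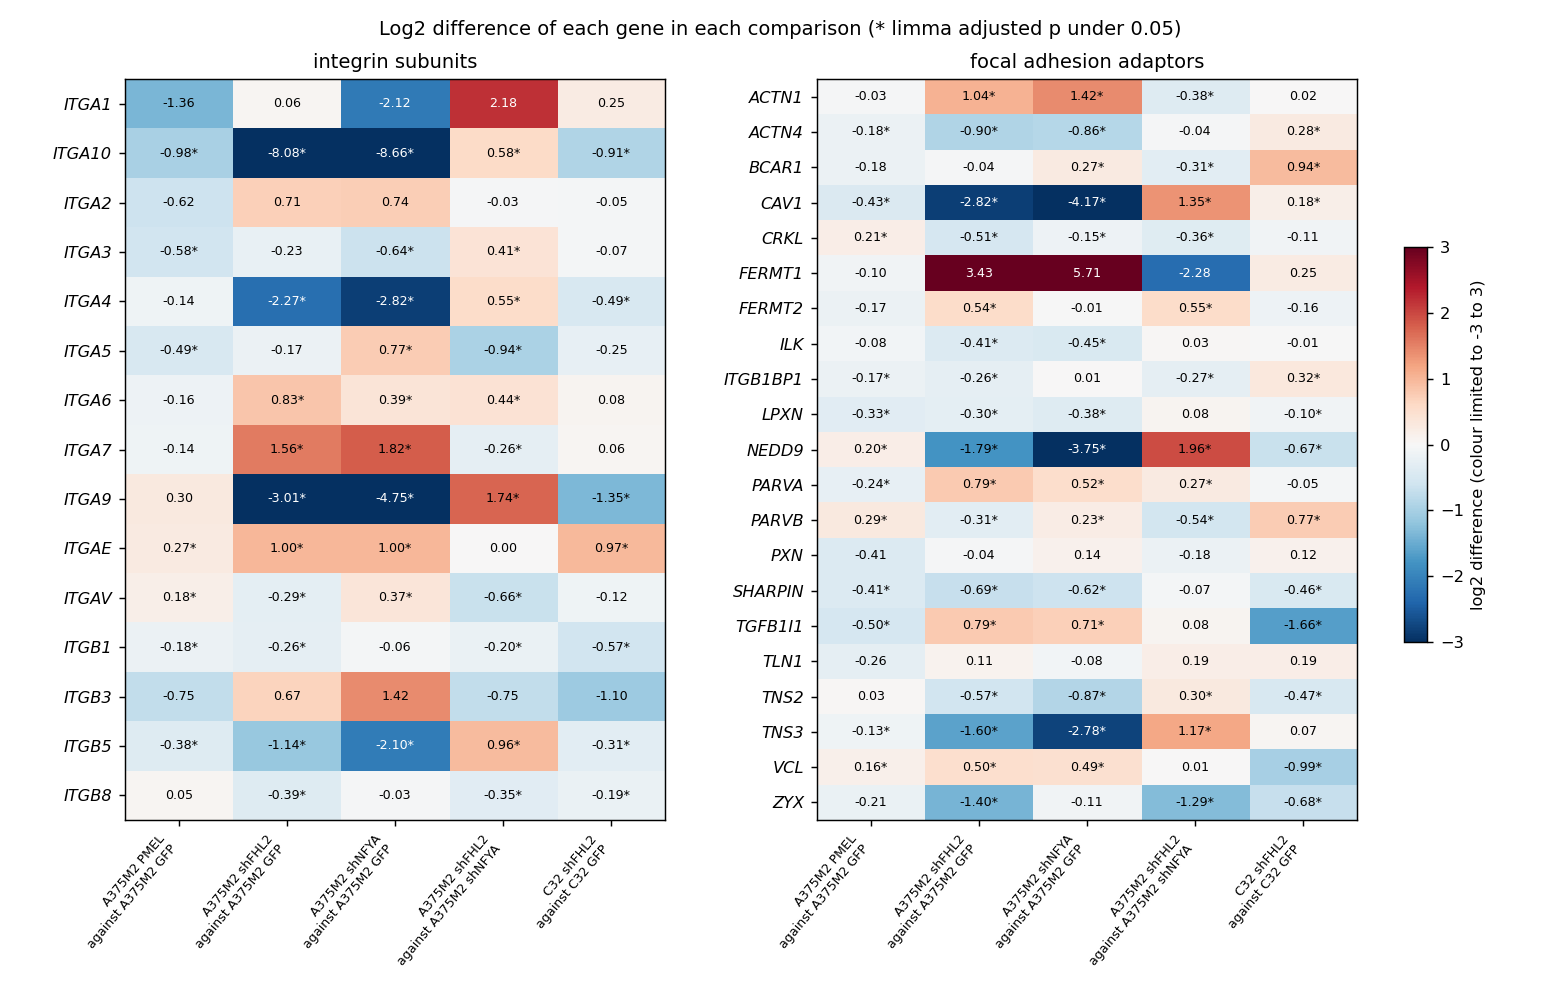
Log2 difference (colour, limited to -3 to 3, with the value printed in each cell) of every integrin subunit and focal adhesion adaptor tested, 1 row a gene and 1 column a comparison. An asterisk marks a limma adjusted p under 0.05 and is left off ITGA1, ITGA2, ITGB3, PXN and FERMT1 throughout; ITGA10 stands at -8.08 and -8.66 with the shRNAs in A375M2, and TGFB1I1 at -1.66 in C32.

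The wider pathway was read from 107 further genes in 4 lists, of which 71 were tested: 12 integrin subunits, 19 focal adhesion adaptors, 17 kinases and exchange factors, and 23 integrin ligands. With PMEL in A375M2, 40 of 71 passed, 11 higher and 29 lower (56.3%, against 40% of all genes, 22.1% higher and 17.8% lower), with a median log2 difference of -0.14 against 0.02 over all genes; without the third arrays 41 passed (29.8% of all genes). Of the ligands 12 fell and 4 rose, led by the matricellular proteins CCN2, which fell 3.73-fold (-1.90, limma, adjusted p = 2.56e-13), and CCN1 (-1.0, adjusted p = 4.1e-12), while fibrillin FBN1 rose (0.76). Of the subunits 5 fell and 2 rose, among them ITGA10, another collagen-binding alpha chain (-0.98), and the laminin-binding ITGA3 (-0.58); of the adaptors 8 fell and 4 rose, with CAV1 at -0.43. Among the kinases and exchange factors 4 fell and 1 rose, with ELMO1 at -0.44 and ROCK2 at -0.24.

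In C32 with FHL2 shRNAs, 42 of 71 passed, 12 higher and 30 lower (59.2%, against 62.5% of all genes, 32.3% higher and 30.2% lower), with a median of -0.09 against 0. The share that passed is close to that of all genes and is not a result about adhesion genes. Of the 4 lists the ligands had the most falls, 14 lower and 2 higher (69.6% of those tested), with a median of -0.71. The basement membrane collagens COL4A1 (-2.60, limma, adjusted p = 1.66e-15) and COL4A2 (-2.26, adjusted p = 1.34e-16) fell, as did laminin LAMA4 (-2.16) and CCN1 (-1.73). Of the subunits 6 fell and 1, ITGAE, rose (0.97), among the falls ITGA9 (-1.35), ITGA4 (-0.49) and the ITGB1 chain. The adaptors went both ways, 7 lower and 5 higher, with vinculin VCL at -0.99 and the Cas scaffold BCAR1 at 0.94. The kinases and exchange factors had 3 lower and 4 higher, with ROCK2 at -0.37 and RAC1 at 0.30.

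Between FHL2 and NFYA shRNAs in A375M2, 52 of 71 passed, 29 higher and 23 lower with FHL2 shRNAs (73.2%, against 70.3% of all genes, 31.8% higher and 38.4% lower), with a median of 0.05 against -0.03. The share that passed is close to that of all genes and is not a result about adhesion genes. Of the ligands tested 73.9% passed, 12 higher and 5 lower with FHL2 shRNAs. Fibronectin FN1 stood at 2.09 (limma, adjusted p = 6.31e-16), FBN1 at 2.19 and CCN1 at 1.37. Integrin subunits split 6 higher and 5 lower, with ITGA9 (1.74) and ITGB5 (0.96) higher and the fibronectin receptor chain ITGA5 (-0.94) lower. Adaptors split 6 and 6, with NEDD9 (1.96), CAV1 (1.35) and TNS3 (1.17) higher, and kinases and exchange factors 5 higher and 7 lower, with the small GTPase RAP1B at -0.98.

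Against GFP, which crosses array sets, 61 of 71 passed with FHL2 shRNAs in A375M2 (20 higher, 41 lower; 85.9%, against 85.4% of all genes, 41.2% higher and 44.2% lower, with a median of -0.30 against -0.03). With NFYA shRNAs 61 of 71 passed as well (26 higher, 35 lower; 85.9%, against 86.9% of all genes, 43.6% higher and 43.2% lower, with a median of -0.11 against 0). Shares this close to the background are not a result about adhesion genes. Among the subunits ITGA10 fell from log2 11.47 in GFP to 3.40 and 2.82, both under log2 4, and the alpha chain ITGA4 fell by log2 differences of -2.27 and -2.82. The adaptors CAV1 (-2.82 and -4.17), NEDD9 (-1.79 and -3.75) and TNS3 (-1.60 and -2.78) also fell, while the actin crosslinker ACTN1 rose (1.04 and 1.42). Among the kinases and exchange factors GIT2 fell on the probe set that stands for it (-1.77 and -2.03), while its other probe set gave 0.26 and -0.17, and CDC42 rose (0.72 and 1.08). COL6A3, a chain of collagen VI, read 2.22 with GFP, at the floor, and 11.29 and 11.37 with the shRNAs.

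**Figure D4:**
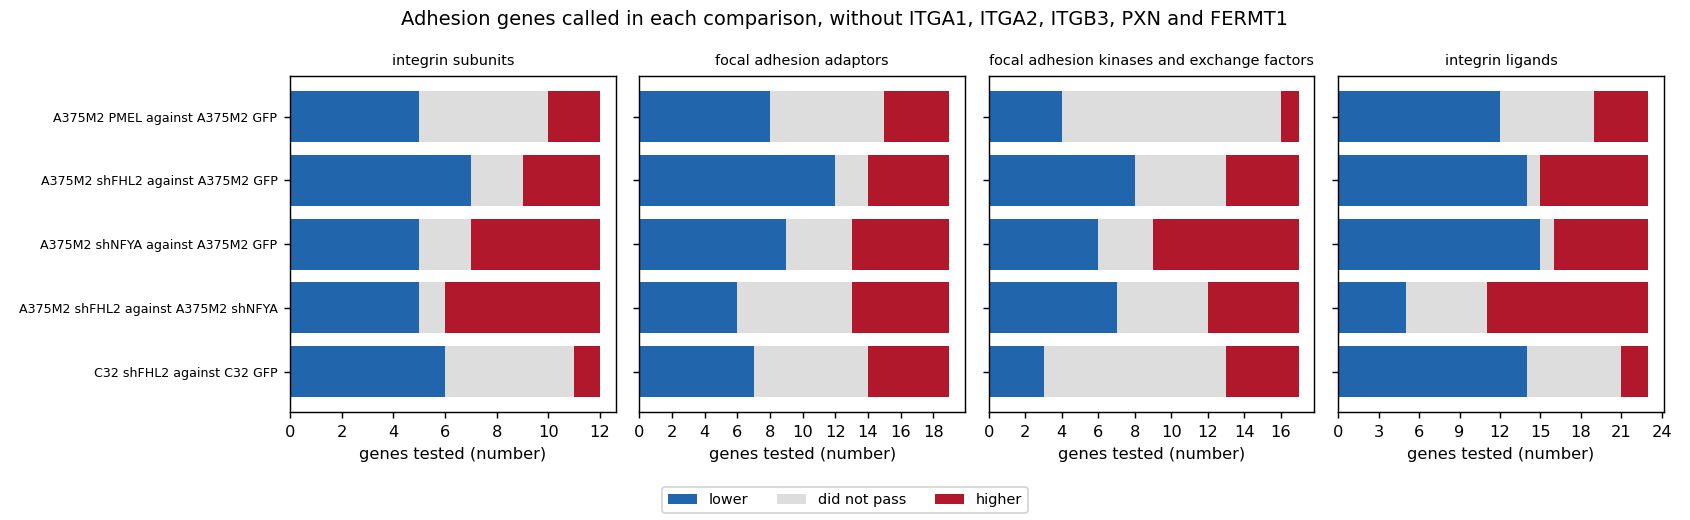
Number of genes in each of 4 adhesion lists that were called higher (red), called lower (blue) or did not pass (grey) at a limma adjusted p under 0.05, for 5 comparisons, without the 5 genes of interest. Ligands fell more often than they rose in C32 with FHL2 shRNAs (14 against 2) and with PMEL in A375M2 (12 against 4). Of all genes tested, 62.5% and 40% passed in these comparisons.

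For each of the 5 genes, on the probe set that stands for it, the most similar genes were taken by Pearson correlation of log2 values over 17 arrays. Only genes whose group means spanned at least log2 1 were compared. Arrays of a group share their condition, so these values describe the pattern over 6 groups. On 226731_at alone ITGA1 ran closest to CSTA (0.958), SFRP1 (0.954) and AKR1C1 (0.946). ITGA2 ran closest to ADAM17 (0.995), SERPINA5 (0.995) and ALKBH8 (0.991). ITGB3 ran closest to SLC5A3 (0.985), CERS5 (0.983) and TMBIM6 (0.972), PXN to DDX10 (0.956), DDAH2 (0.943) and GNAI3 (0.934), and FERMT1 to FRAT1 (0.995), PSMD12 (0.994) and SLC25A46 (0.993). Within the 5 genes, ITGA2 followed the ITGA1 probe set 214660_at at 0.97 and 226731_at at 0.64, while those 2 ITGA1 probe sets correlated at 0.66 with each other.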

How the data were processed

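Per the labels, total RNA was labelled for Affymetrix 3′ expression arrays. The deposited values are log2 signals; the submitters' processing notes name GCRMA, whose version the sources used here do not give. They were used as deposited. Array number limits precision. Of 23416 probe sets, 58 were controls and 3094 had several or no gene symbol; these were left out, as were 833 that did not reach log2 4 in at least 3 of 17 arrays. The probe set of highest mean stood for a gene (10918 genes). A model of 6 group means was fitted (limma 3.58.1, R 4.3.3; lmFit, eBayes with trend, 11 residual degrees of freedom), with Benjamini-Hochberg adjustment over all genes, and called at an adjusted p under 0.05. The pipeline was tested on simulated data. Named genes are the 5 genes, FHL2, PMEL and NFYA, their partner chains and paralogs, up to 4 called genes with the smallest adjusted p per list and comparison, and the 3 most correlated genes of each. The genes and the lists were chosen with earlier results of these data known. Promoters are from RefSeq on GRCh38.p14; 3 of the 5 genes matched. Alternatives were other filters, floors, scalings, probe sets, variance models, array weights, a replicate block, all 18 arrays, the arrays numbered 3 of A375M2 GFP and PMEL left out, and each array left out in turn. Promoters and plots used Python 3.11.15 with matplotlib 3.10.9.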

Additional observations from a re-analysis of the deposited data

Results flagged for a closer look

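In 8 of 37 adhesion genes checked (21.6%), the arrays of cells with FHL2 shRNAs lay wholly on one side of GFP in A375M2 and wholly on the other side in C32, on the probe set that stands for the gene. Of all 10918 genes tested 27.6% did the same. The genes checked were the genes followed here, partner chains and paralogs, and list genes with the smallest adjusted p in these same comparisons. Picked in part for change in the values scored, they cannot be compared fairly with all genes. The difference between the lines was not tested, and the A375M2 side crosses array sets. ITGB3 differed by 0.67 on the log2 scale in A375M2 and by -1.10 in C32 on 204627_s_at, while its probe sets 215240_at and 216261_at were lower in A375M2 too. The paxillin relative TGFB1I1 differed by 0.79 and -1.66, vinculin (VCL) by 0.50 and -0.99, and CAV1 by -2.82 and 0.18. RAC1 differed by -0.13 and 0.30, but its other probe set was higher in both lines, at 0.88 and 0.77. In the remaining genes the C32 difference did not pass the limma test. These were the kindlin FERMT2 at 0.54 and -0.16 (adjusted p in C32 = 0.0975), the kinase PAK2 at -0.76 and 0.12 (adjusted p = 0.0528), and COL6A3 at 9.07 and -0.01 (adjusted p = 0.959), which read log2 2.20 and 2.21 in C32. The 5 probe sets of PAK2 ran from -0.85 to 0.80 in A375M2.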

How the results depend on the processing

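The counts of adhesion genes called stayed within 1.5 times the reported count under all alternatives: 35 to 46 with PMEL, 58 to 62 with FHL2 and 59 to 63 with NFYA shRNAs in A375M2, 50 to 54 between the shRNAs and 41 to 50 in C32; leaving out 1 array gave 35 to 40, 61 to 62, 59 to 61, 50 to 53 and 38 to 42. Replicate numbers did not pair the arrays (0 of 40 same-numbered pairs correlated above 0.1); with the replicate block the counts were 38, 61, 61, 51 and 42, and ITGA1 in C32 was 0.24 (limma, adjusted p = 0.0766). Signs turned with the probe set: ITGA1 with NFYA shRNAs against GFP was 1.28 on 214660_at, which is also the probe set of largest variance and the highest in those 2 groups alone, and 0.89 on 1560359_at; in C32 it was -0.22 on 214660_at and -0.04 on 1560359_at. ITGB3 on 216261_at was 0.24 with PMEL, -1.20 with FHL2 shRNAs, -1.22 with NFYA shRNAs and 0.02 between the shRNAs, and on 215240_at -0.49 with FHL2 shRNAs; the cause was not tested. The ITGA1 call in C32 was also lost without a variance trend (adjusted p = 0.0604), with array weights (0.074), without the third arrays (0.0521) and on the 2 groups alone (0.125). PXN in C32 passed without a trend (0.0485), with all 18 arrays (0.0223) and without C32 shFHL2 replicate 1 (0.0308). Centring on medians shifted the median of all genes by 0.11 with NFYA shRNAs. Low values, as those of FERMT1 in C32, limit the size of a difference.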
